A study of Mus musculus with 16 samples.

Results

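The T-cell receptor complex and its coreceptors were represented by 9 genes: the CD3 chains *Cd3d*, *Cd3e*, and *Cd3g*, the coreceptors *Cd4*, *Cd8a*, and *Cd8b1*, the adhesion receptor *Cd2*, and the costimulatory receptors *Cd28* and *Icos*. They were chosen by name, as every array probe assigned to a transcript of these genes, and they are 9 of the 22911 genes with a named probe. They had 13 probes, of which 11 passed the filter on dim signal and were tested, so that each of the 9 genes had at least 1 tested probe. The study crossed mice lacking Fc gamma receptor IIb, which develop lupus, with mice lacking STING, the adaptor of cytosolic DNA sensing, and it stained kidney sections for CD3. RNA of 16 whole kidneys was hybridized to one-color arrays, 1 mouse per array and 4 mice per genotype, all 6 months old. Wild-type (WT) and *Sting gt/gt* mice were on C57BL/6, whereas *Fcgr2b-/-* mice and double-deficient *Fcgr2b-/-.Sting gt/gt* mice were on a mixed 129/C57BL/6 background. Effects of the *Fcgr2b* deletion and of the 129 background therefore cannot be told apart between these strains. The Goldenticket allele (gt) removes STING function in the whole animal by a point mutation, and the deletion of *Fcgr2b* is likewise not restricted to a cell type. The labels call the *Fcgr2b-/-* mice Fcgr2b-ko and lupus mouse and give no *Sting* allele for them, while the study's supplement calls the *Fcgr2b-/-* mice of its kidney profile heterozygous (*Sting wt/gt*). Per the study, WT mice were purchased, littermate controls are also mentioned, and the kidneys were not perfused, so blood cells are part of the sample. The sex of the mice is not given in the sources used here.

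As background, the T-cell receptor recognizes a peptide held by an MHC molecule but cannot signal alone, and the CD3 delta, epsilon, and gamma chains with the zeta chain (*Cd247*) carry the signal into the cell. CD4 and CD8 bind MHC class II and class I and bring the kinase LCK to the receptor. CD2 binds CD48 on a neighboring cell, CD28 binds CD80 and CD86, and ICOS, which appears after activation, binds ICOS ligand. In lupus nephritis T cells gather around glomeruli and vessels and between tubules.

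*Cd3d* and *Cd3g* lie head to head, with start sites 1355 bases apart, and *Cd3e* starts 27825 bases from *Cd3d*. The 250 bases before each start site are shown because *Cd3d* and *Cd3g* varied together over the kidneys, while neither *Cd3e* probe followed them. The *Cd3e* probes did not follow each other either (r 0.24), and a link between these sequences and the array values was not tested. The RefSeq promoter table (GRCm38.p6) held entries for 4 of the 9 genes, the fourth being *Cd8a*, and *Cd4*, *Cd8b1*, *Cd2*, *Cd28*, and *Icos* had none. Capitals mark the E-box CANNTG, the site of E proteins.
Cd3d, chr9:44981536-44981785, plus strand: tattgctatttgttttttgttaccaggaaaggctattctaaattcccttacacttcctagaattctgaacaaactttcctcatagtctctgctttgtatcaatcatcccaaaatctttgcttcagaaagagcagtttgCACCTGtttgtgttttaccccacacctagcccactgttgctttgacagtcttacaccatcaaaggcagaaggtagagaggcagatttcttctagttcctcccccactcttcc
Cd3g, chr9:44980432-44980681, minus strand: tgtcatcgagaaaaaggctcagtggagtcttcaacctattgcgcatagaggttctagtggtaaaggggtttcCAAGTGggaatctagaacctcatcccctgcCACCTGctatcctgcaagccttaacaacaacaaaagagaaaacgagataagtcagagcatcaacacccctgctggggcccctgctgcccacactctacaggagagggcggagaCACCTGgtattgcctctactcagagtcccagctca
Cd3e, chr9:45009612-45009861, minus strand: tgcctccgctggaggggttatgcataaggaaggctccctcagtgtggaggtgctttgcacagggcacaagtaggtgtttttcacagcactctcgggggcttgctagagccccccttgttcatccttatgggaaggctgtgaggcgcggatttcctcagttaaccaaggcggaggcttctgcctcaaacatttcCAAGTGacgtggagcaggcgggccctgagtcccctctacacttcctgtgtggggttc
*Cd3d* held 1 E-box, *Cd3g* 3, and *Cd3e* 1, on either strand, and 66.2% of all 32851 promoter windows of this length held at least 1. The ETS core AGGAAG was found 1 time before *Cd3d*, 2 times before *Cd3e*, and 0 times before *Cd3g* (29.5% of all windows hold it). The GATA motif AGATAA was found 1 time before *Cd3g* and 0 times before the other two (9.99% of windows). The RUNX motif TGTGGT was in 0 of the 3 windows and in 14% of all. These are matches of letters in the reference sequence, not measured binding.

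On the arrays, 28441 to 35564 of 56605 probes were well above background, with a median of 33388. All values are log2 signal minus the 75th percentile of the array, so that 0 is the brightness of the 75th percentile probe, and levels are compared only between arrays for one probe. The arrays lay on 2 slides, with 2 WT, 3 *Fcgr2b-/-*, 1 *Fcgr2b-/-.Sting gt/gt*, and 2 *Sting gt/gt* arrays on slide 1. *Fcgr2b*, as a check of the labels, was at 1.16 ± 0.44 in WT, −0.28 ± 0.34 in *Fcgr2b-/-*, −0.58 ± 0.41 in *Fcgr2b-/-.Sting gt/gt*, and 0.26 ± 0.70 in *Sting gt/gt* kidneys (SD, n = 4 each). The WT values did not overlap with those of either *Fcgr2b*-deficient group, but those of *Sting gt/gt* did, down to −0.66 in replicate 4, and the probe stayed well above background on all 16 arrays. The gt allele is a point mutation, so the *Sting1* probe does not check it. Kidney identity was clear from *Umod* at 7.61 ± 0.54 and *Slc34a1* at 7.06 ± 0.54 in WT (SD, n = 4).

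None of the 9 genes passed the test in any comparison, and the values of neighboring genotypes overlapped for each of them. *Cd3d*, *Cd3g*, *Cd8b1*, *Cd28*, and *Icos* were highest in the same 5 kidneys: *Fcgr2b-/-* replicates 1 and 4, *Sting gt/gt* replicate 1, WT replicate 1, and *Fcgr2b-/-.Sting gt/gt* replicate 2. All 4 genotypes were thus represented among the 5. Over all 16 kidneys *Cd3d* spanned 18.8-fold, *Cd3g* 44.3-fold, *Cd2* 15.4-fold, and *Cd28* 13.4-fold. The brightest probes of *Cd3e* and *Cd4* spanned only 2.53-fold and 2.11-fold and did not follow this order.

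**Figure D1:**
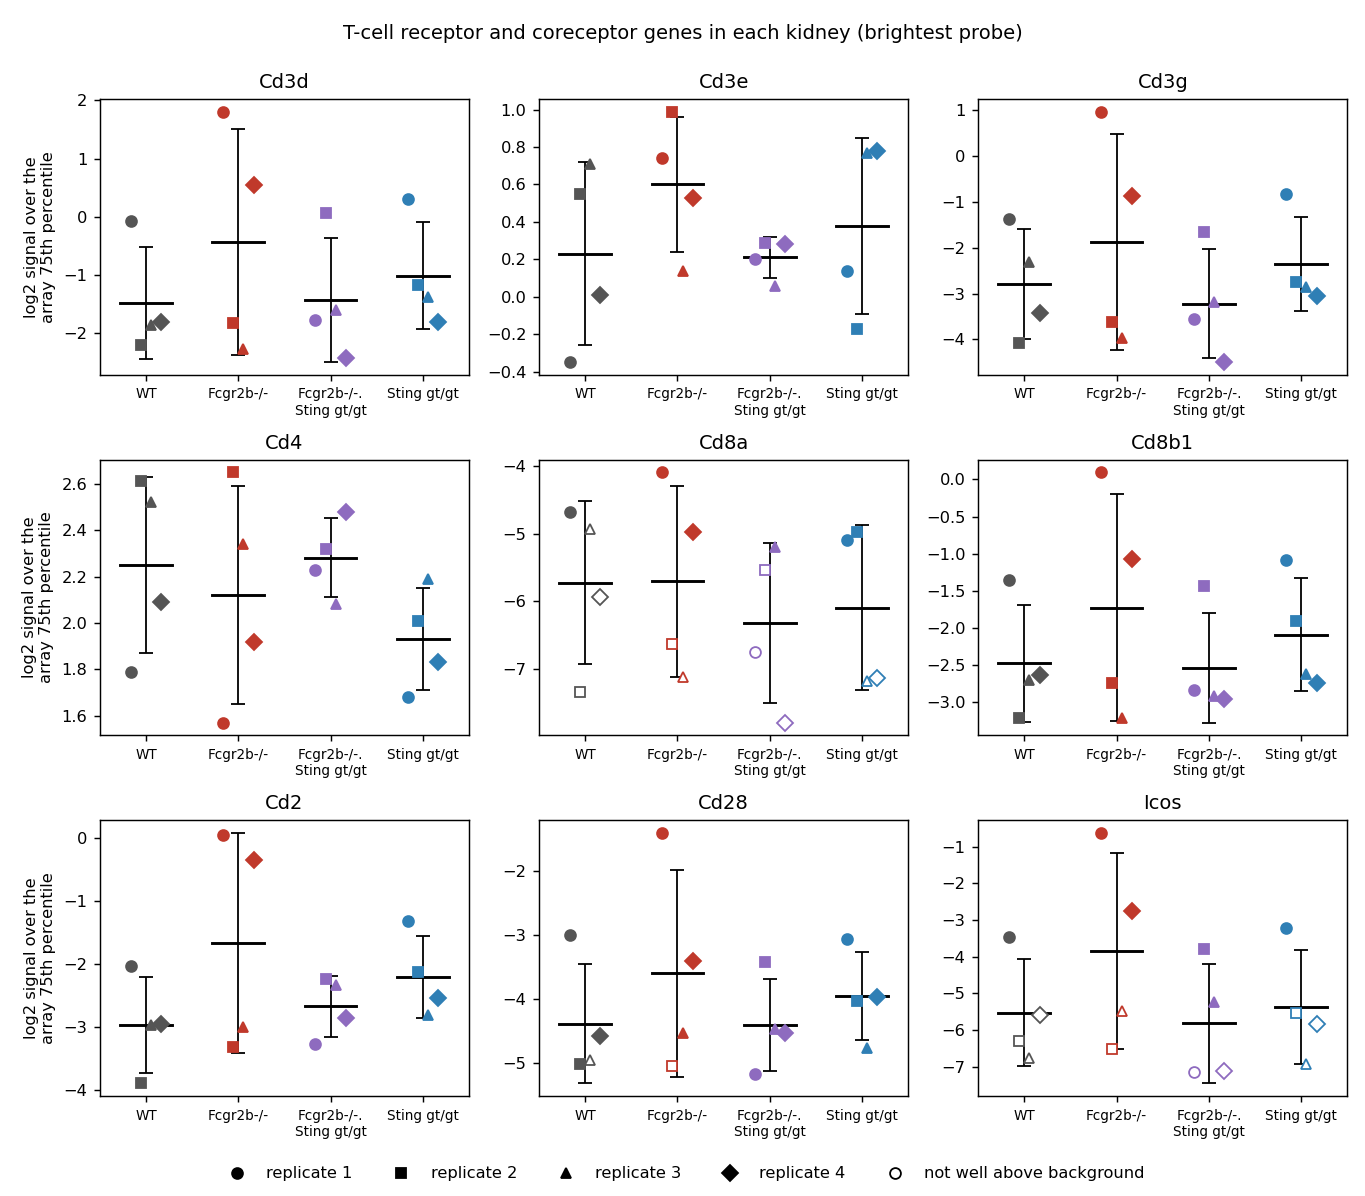
Log2 signal over the 75th percentile of the array (y axis, a scale per gene) for the brightest probe of each gene in each kidney (points, with a shape per replicate number, open where not well above background), with genotype mean and SD (black, n = 4). In *Cd3d*, *Cd3g*, *Cd8b1*, *Cd28*, and *Icos* the highest points are *Fcgr2b-/-* 1 and 4, *Sting gt/gt* 1, WT 1, and *Fcgr2b-/-.Sting gt/gt* 2, while *Cd3e* and *Cd4* vary little.

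*Cd3d* encodes the delta chain of CD3. Its brightest probe read −0.08, −2.21, −1.86, and −1.80 in WT replicates 1 to 4, and 1.81, −1.82, −2.27, and 0.55 in *Fcgr2b-/-*. It read −1.77, 0.07, −1.61, and −2.43 in *Fcgr2b-/-.Sting gt/gt* and 0.30, −1.17, −1.38, and −1.80 in *Sting gt/gt* kidneys. The *Fcgr2b-/-* group held 2 high and 2 low kidneys, each other group had 1 high kidney, and all groups overlapped. The difference between *Fcgr2b-/-* and WT was 1.05 ± 0.83 on the log2 scale (SE; 95% interval −0.71 to 2.81; limma adjusted p = 1), and between *Fcgr2b-/-.Sting gt/gt* and *Fcgr2b-/-* it was −1.0 ± 0.83 (adjusted p = 1).

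*Cd3g*, the gamma chain, was highest in the same 5 kidneys as *Cd3d*, with a wider range. It read −1.37, −4.08, −2.32, and −3.43 in WT and 0.97, −3.62, −3.98, and −0.88 in *Fcgr2b-/-* kidneys. In *Fcgr2b-/-.Sting gt/gt* the values were −3.56, −1.65, −3.18, and −4.50, and in *Sting gt/gt* they were −0.83, −2.74, −2.85, and −3.05. The lowest kidney of *Fcgr2b-/-* was thus below 3 of the 4 WT kidneys, although the mean of the group was 0.92 ± 0.98 higher (SE, adjusted p = 1). Against *Fcgr2b-/-*, the double-deficient mice differed by −1.34 ± 0.98 (SE, adjusted p = 1).

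*Cd3e*, the epsilon chain, had 2 probes well above background on all 16 arrays, and neither showed the 5 kidneys. The brightest read −0.35, 0.55, 0.71, and 0.01 in WT, 0.74, 0.99, 0.14, and 0.53 in *Fcgr2b-/-*, 0.20, 0.29, 0.06, and 0.28 in *Fcgr2b-/-.Sting gt/gt*, and 0.14, −0.17, 0.77, and 0.78 in *Sting gt/gt*. The kidney of WT replicate 1, among the high ones for *Cd3d*, was the lowest of all 16. The dimmer probe lay between −4.54 and −3.50 in 15 kidneys and at −2.0 in *Fcgr2b-/-* replicate 2, a kidney that was low for *Cd3d*. On the brightest probe *Fcgr2b-/-* differed from WT by 0.37 ± 0.29 and *Fcgr2b-/-.Sting gt/gt* from *Fcgr2b-/-* by −0.39 ± 0.29 (SE, adjusted p = 1 for both).

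Over the 16 kidneys, the correlation of *Cd3e* with each other member missed the threshold, except that *Cd8a* passed it with normexp background correction (r = 0.69, adjusted permutation p = 0.0291). Pearson's r with the brightest *Cd3e* probe was −0.02 for *Cd3d* (Spearman's rho −0.12), 0.04 for *Cd3g* (rho −0.06), −0.06 for *Cd8b1* (rho −0.07), −0.03 for *Cd2* (rho −0.24), −0.27 for *Cd8a* (rho −0.30), and 0.28 for *Cd4* (rho 0.31). Permutation p-values of r for the 8 genes ran from 0.285 for *Cd4* to 0.931 for *Cd3d*, and the adjusted p was 0.931 for each. For rho the permutation p ran from 0.248 to 0.823 and the adjusted p from 0.58 to 0.823. Without WT replicate 1 and *Fcgr2b-/-* replicate 2, the kidneys farthest from the *Cd3e* median, r was 0.19 for *Cd3d*, 0.30 for *Cd3g*, and −0.02 for *Cd4*. Within slides 1 and 2 r with *Cd3d* was −0.01 and 0.05, and after removing genotype means it was −0.20.

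Both probes of *Cd3d*, by contrast, gave the kidneys in nearly one order. The *Cd3d* values fell into 5 high and 11 lower kidneys, so no r over all 16 is given. Within the 11 it was 0.95 (rho 0.95; permutation p = 5e-05 and 4e-05; adjusted p = 0.0002 and 0.00016 over the 4 genes with 2 probes), and 0.91 without the 2 farthest of them. For the 2 probes of *Cd3e* r over the 16 kidneys was 0.24 (rho −0.01, permutation p = 0.402 and 0.977, adjusted p = 0.536 and 0.977). It was −0.34 without the 2 farthest kidneys, one of which was *Fcgr2b-/-* replicate 2. A *Cd3e* value read from these arrays thus depends on the probe, and what each *Cd3e* probe binds was not tested.

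**Figure D2:**
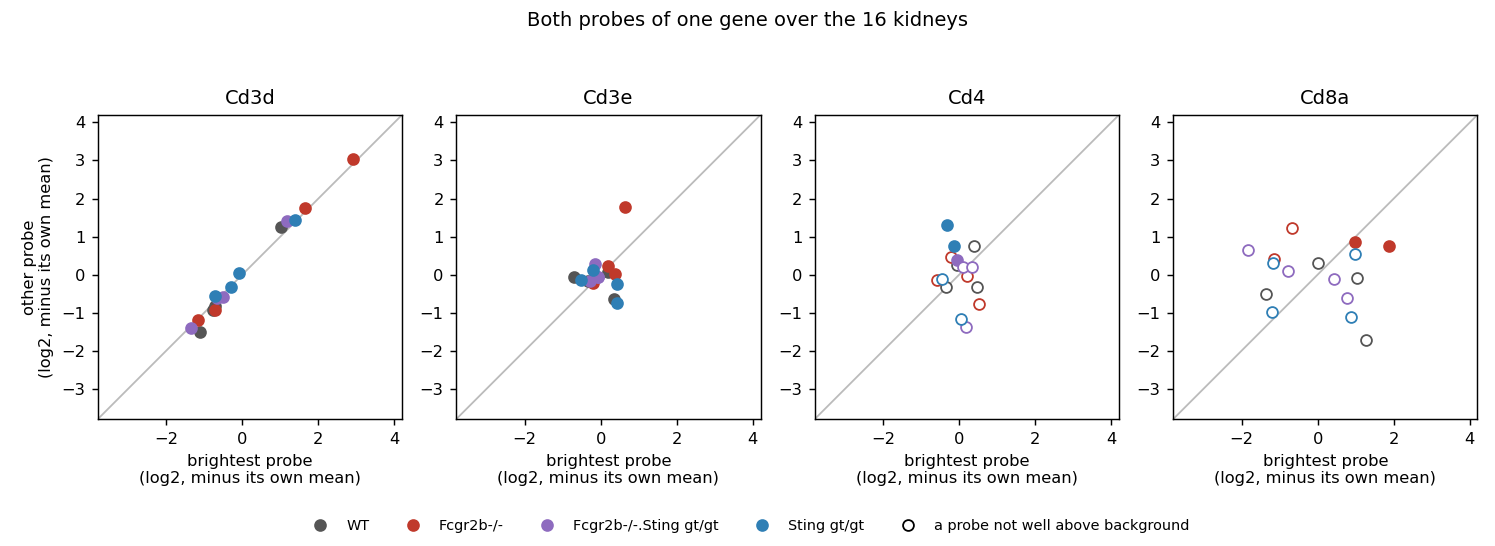
The brightest (x axis) and the other probe (y axis) of *Cd3d*, *Cd3e*, *Cd4*, and *Cd8a*, each as log2 signal minus its own mean over the 16 kidneys (points, colored by genotype, open where either probe was near background), with the line of equal change. The points of *Cd3d* lie along the line, while those of the other genes do not (r over 16 kidneys of 0.24, −0.25, and −0.14).

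*Cd4* encodes the coreceptor of helper T cells, which is also carried by some mouse dendritic cells. Its brightest probe read 1.79, 2.61, 2.52, and 2.09 in WT, 1.57, 2.65, 2.34, and 1.92 in *Fcgr2b-/-*, 2.23, 2.32, 2.08, and 2.48 in *Fcgr2b-/-.Sting gt/gt*, and 1.68, 2.01, 2.19, and 1.83 in *Sting gt/gt* kidneys. None of the 5 kidneys highest in *Cd3d* was among its top 5, and *Fcgr2b-/-* replicate 1, the highest for *Cd3d*, was its lowest. *Fcgr2b-/-* differed from WT by −0.14 ± 0.26 and *Fcgr2b-/-.Sting gt/gt* from *Fcgr2b-/-* by 0.16 ± 0.26 (SE, adjusted p = 1 for both). The 95% interval of the first ran from −0.70 to 0.43. The other probe was well above background on 3 arrays, 1 of *Fcgr2b-/-.Sting gt/gt* and 2 of *Sting gt/gt*, and was not tested. The pair had an r of −0.25 (rho −0.18, permutation p = 0.354 and 0.505, adjusted p = 0.536 and 0.977; r −0.21 without the 2 farthest kidneys). The *Cd4* results here thus rest on the brightest probe alone, and what each *Cd4* probe binds was not tested.

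*Cd8a* and *Cd8b1* encode the chains of the coreceptor of cytotoxic T cells, and *Cd8a* is also made by some dendritic cells. *Cd8b1* read −1.36, −3.22, −2.70, and −2.63 in WT and 0.10, −2.75, −3.21, and −1.07 in *Fcgr2b-/-* kidneys. It read −2.84, −1.44, −2.92, and −2.96 in *Fcgr2b-/-.Sting gt/gt* and −1.08, −1.91, −2.62, and −2.74 in *Sting gt/gt*. Replicate 2 of *Fcgr2b-/-.Sting gt/gt* stood apart from the other 3 of its group, and *Fcgr2b-/-* again held 2 high and 2 low kidneys. The difference was 0.75 ± 0.66 for *Fcgr2b-/-* against WT and −0.81 ± 0.66 for *Fcgr2b-/-.Sting gt/gt* against *Fcgr2b-/-* (SE, adjusted p = 1 for both).

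*Cd8a* was near the limit of detection. Its brightest probe was well above background in 1 WT, 2 *Fcgr2b-/-*, 1 *Fcgr2b-/-.Sting gt/gt*, and 2 *Sting gt/gt* kidneys, with values from −7.79 to −4.09 over all 16. *Fcgr2b-/-* replicate 1 was the highest and WT replicate 1 the next. The mean difference between *Fcgr2b-/-* and WT was 0.02 ± 0.81 (SE, 95% interval −1.70 to 1.73, adjusted p = 1), so that a change in either direction was not detectable at this signal. It was 0.49 without *Fcgr2b-/-* replicate 3 and −0.52 without WT replicate 2, and scaling by the median, quantile normalization, and the slide as a block also gave negative values. The other *Cd8a* probe was well above background in *Fcgr2b-/-* replicates 1 and 4 alone, at −5.28 and −5.17, and was not tested. *Fcgr2b-/-* replicates 2 and 3 read −4.81 and −5.62 without being well above background, so no fold between genotypes is given for this probe. The WT kidneys lay below all *Fcgr2b-/-* kidneys on it, from −7.75 to −5.74, but none was well above background. The 2 probes had an r of −0.14 (rho −0.02, permutation p = 0.592 and 0.935, adjusted p = 0.592 and 0.977; r −0.21 without the 2 farthest kidneys).

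*Cd2*, an adhesion receptor of T and natural killer cells, had the lowest p of the members in *Fcgr2b-/-* against WT. It read −2.02, −3.89, −2.96, and −2.95 in WT, 0.05, −3.32, −3.00, and −0.35 in *Fcgr2b-/-*, −3.27, −2.23, −2.33, and −2.86 in *Fcgr2b-/-.Sting gt/gt*, and −1.32, −2.13, −2.80, and −2.54 in *Sting gt/gt* kidneys. Replicates 1 and 4 of *Fcgr2b-/-* lay above every WT kidney and replicates 2 and 3 lay among them. The difference was 1.30 ± 0.67 (SE; 95% interval −0.13 to 2.73; limma adjusted p = 1), and 0.73 without *Fcgr2b-/-* replicate 1. *Fcgr2b-/-.Sting gt/gt* differed from *Fcgr2b-/-* by −1.01 ± 0.67 (SE, adjusted p = 1).

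*Cd28*, the main costimulatory receptor of naive T cells, was well above background on 14 of the arrays, and *Icos*, its inducible relative, on 6. *Cd28* read −3.01, −5.01, −4.94, and −4.58 in WT, −1.41, −5.04, −4.52, and −3.41 in *Fcgr2b-/-*, −5.16, −3.42, −4.47, and −4.52 in *Fcgr2b-/-.Sting gt/gt*, and −3.06, −4.03, −4.76, and −3.96 in *Sting gt/gt* kidneys. *Icos* read −3.46, −6.31, −6.75, and −5.58 in WT, −0.62, −6.51, −5.47, and −2.75 in *Fcgr2b-/-*, −7.13, −3.78, −5.23, and −7.12 in *Fcgr2b-/-.Sting gt/gt*, and −3.23, −5.53, −6.92, and −5.83 in *Sting gt/gt*. Of the 6 arrays on which *Icos* was well above background, 5 were those of the 5 high kidneys and the remaining one was *Fcgr2b-/-.Sting gt/gt* replicate 3. *Icos* had the largest difference of the 9 genes in *Fcgr2b-/-* against WT, 1.69 ± 1.20 (SE, adjusted p = 1), and in *Fcgr2b-/-.Sting gt/gt* against *Fcgr2b-/-*, −1.98 ± 1.20 (SE, adjusted p = 1), and with most kidneys at background these sizes are imprecise. The differences of *Cd28* were 0.79 ± 0.68 and −0.80 ± 0.68 (SE, adjusted p = 1 for both).

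Taking the 9 genes over the comparisons, 0 were called in *Fcgr2b-/-* against WT meaning a 2-fold difference or more with limma's p, adjusted after Benjamini and Hochberg, below 0.05, where 0.0449% of the 35628 probes tested were called. At an unadjusted p under 0.05 the count was also 0 of 9, against 3.3% of all probes. The difference was above 0 for 8 of 9 genes (44.9% of all probes) with a median of 0.79 against −0.04 over all probes, and 3 genes were at least 2-fold higher (4.43% of all probes). By the brightest probe, no member had groups that did not overlap, higher (0.626% of all probes) or lower (0.567%). The median of the members was 0.13 without *Fcgr2b-/-* replicate 1 and 0.51 without the 3 kidneys richest in fat genes. Within slide 1, with 3 *Fcgr2b-/-* and 2 WT arrays, it was 1.05, and within slide 2, with 1 and 2 arrays, it was −0.22.

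In *Fcgr2b-/-.Sting gt/gt* against *Fcgr2b-/-* kidneys, 0 of the 9 genes were called, as were 0% of all probes, and at an unadjusted p under 0.05 the count was 0 by limma, against 1.75% of all probes. The difference was above 0 for 1 gene, *Cd4* (56.2% of all probes), and 4 genes were at least 2-fold lower (2.72% of all probes), with a median of −0.81 against 0.05 over all probes. No member had groups that did not overlap (0.707% of all probes higher and 0.312% lower). The median was −0.25 without *Fcgr2b-/-* replicate 1 and −0.52 with the slide as a block. It was also −0.25 without the 3 kidneys richest in fat genes, of which only *Fcgr2b-/-* replicate 1 is in this comparison. Within slide 1 it was −1.87, from 1 *Fcgr2b-/-.Sting gt/gt* and 3 *Fcgr2b-/-* arrays, and within slide 2 it was 0.53, from 3 and 1. The direction did not hold within both slides. This comparison and the one with WT share the *Fcgr2b-/-* mice.

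In *Fcgr2b-/-.Sting gt/gt* against WT the members had a median of −0.03 (0.01 over all probes), with 3 of 9 above 0 (51.3% of all probes), 0 called (0% of all probes), and 0 at an unadjusted limma p under 0.05 (0.418%). In *Sting gt/gt* against WT the median was 0.39 (0.02 over all probes), with 7 of 9 above 0 (51.3% of all probes), 0 called (0%), and 0 at an unadjusted limma p under 0.05 (3.73%). The 95% intervals still reached 2.81 for *Cd3d* in *Fcgr2b-/-* against WT and 2.23 in *Sting gt/gt* against WT on the log2 scale, so that with 4 mice per group they held changes of severalfold. The interaction, the effect of gt in *Fcgr2b-/-* mice minus its effect in WT mice, had a median of −1.23 (0.01 over all probes), with 1 of 9 above 0 (50.6% of all probes), and 0 members were called (0%) or had an unadjusted limma p under 0.05 (6.23%). *Cd2* had the lowest p, with an interaction of −1.77 ± 0.95 (SE; limma adjusted p = 0.668). By mean, *Fcgr2b-/-* was the highest genotype for 8 of the 9 genes and *Fcgr2b-/-.Sting gt/gt* for *Cd4*, but in each of the 27 steps between genotypes next to each other in these orders the values overlapped. In whole kidney, fewer T cells and less RNA per T cell cannot be told apart.

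**Figure D3:**
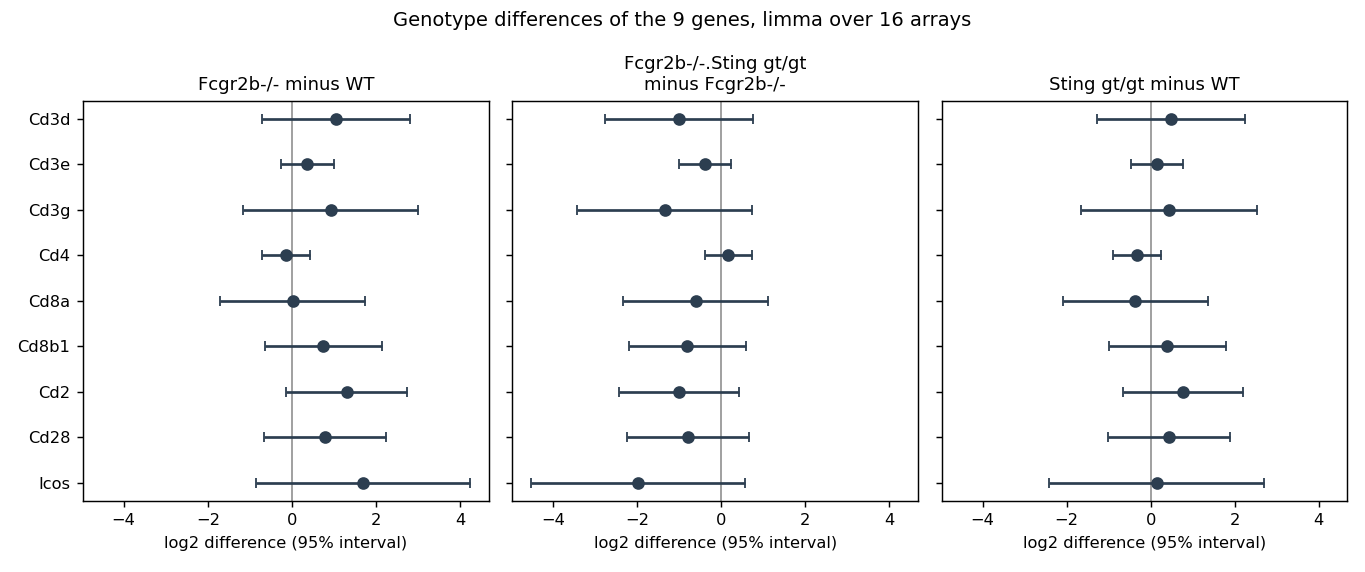
Log2 difference (x axis) of the 9 genes in 3 comparisons (panels), estimated by limma over 16 arrays, with 95% intervals (bars). Every interval includes 0, and those of *Cd3e* and *Cd4* are the narrowest.

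The order of the kidneys was shared among members beyond the 5 high ones only in part. For *Cd3d* the fifth highest kidney was at −0.08 and the sixth at −1.17. Among the 11 lower kidneys r with *Cd3d* was 0.82 for *Cd8b1* (rho 0.69; permutation p = 0.00141 and 0.0224, adjusted p = 0.0113 and 0.0658) and 0.78 for *Cd3g* (rho 0.69; permutation p = 0.00497 and 0.0221, adjusted p = 0.0199 and 0.0658). Without *Sting gt/gt* replicate 2 and *Fcgr2b-/-.Sting gt/gt* replicate 4 these were 0.79 and 0.65. For the other 6 genes the adjusted permutation p of r was between 0.111 and 0.722, and r itself was 0.60 for *Cd8a*, 0.58 for *Cd2*, 0.28 for *Cd28*, 0.22 for *Icos*, −0.57 for *Cd4*, and −0.12 for *Cd3e*. This check was chosen after the values were seen.

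The 10 genes whose values over the 16 kidneys were most like the mean of the 9 members, by Pearson's r as a description, were *Gpr171* (0.986), *Sh2d1a* (0.98), *Nkg7* (0.972), *Psmb9* (0.971), *Cxcl9* (0.971), *Ms4a4b* (0.967), *Tspan32* (0.966), *Lck* (0.964), *Fbn1* (0.96), and *H2-M3* (0.959). *Sh2d1a* encodes the SLAM adaptor SAP, *Nkg7* a granule protein of cytotoxic cells, *Lck* the kinase of the coreceptors, *Psmb9* an immunoproteasome subunit, *Cxcl9* a chemokine that draws T cells, and *Fbn1* the matrix protein fibrillin. By the same measure *Cd3d*, *Cd3g*, and *Cd8b1* had an r of 0.98, while *Cd3e* had −0.03 and *Cd4* −0.75, although each is part of that mean. All these points share the arrays and their scaling. These r values pool the 5 high and 11 lower kidneys of *Cd3d*, and for a member they are in part built in.

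The genes downstream of the receptor were high in the same kidneys. As the mean log2 ratio to WT, T-cell receptor signaling genes stood at 1.17 in WT replicate 1, 3.04 and 2.09 in *Fcgr2b-/-* replicates 1 and 4, 1.04 in *Fcgr2b-/-.Sting gt/gt* replicate 2, and 1.39 in *Sting gt/gt* replicate 1, and at most at 0.35 in the others. Of 23 genes of T-cell receptor signaling, 17 were tested and 0 were called in *Fcgr2b-/-* against WT. A gene was tested when it was well above background on 4 arrays, which can be those of 1 genotype, so the counts are of tested genes and not of the list. All 17 were above 0, with a median of 1.23, and 8 had an unadjusted limma p under 0.05, higher (2.62% of all probes). The largest were *Lcp2* (2.70 ± 0.85), *Fyb* (2.31 ± 0.80), and *Vav1* (2.21 ± 0.63; SE, adjusted p = 0.945, 1, and 0.752), adaptors and an exchange factor that T cells share with myeloid cells. *Vav1* read −0.42, −2.33, −1.69, and −1.31 in WT and 2.45, −0.72, −0.46, and 1.84 in *Fcgr2b-/-* kidneys. *Lck*, *Zap70*, and *Lat*, named here after their values were seen, differed by 1.02 ± 0.65, 1.23 ± 0.87, and 0.52 ± 0.71 (SE, adjusted p = 1 for each). The T-cell genes *Cd5* and *Cd6*, likewise named after the values were seen, differed by 1.45 ± 0.61 and 1.13 ± 0.50. Their unadjusted limma p was 0.0323 and 0.0398, and neither was called. In *Fcgr2b-/-.Sting gt/gt* against *Fcgr2b-/-* all 17 were below 0, with a median of −1.16, 0 called, and 3 at an unadjusted limma p under 0.05, lower (1.15% of all probes). The brightest probe of the zeta chain *Cd247*, also named after its values were seen, did not follow: it read 0.98, 2.84, 2.91, and 1.70 in WT and 1.90, 3.04, 2.30, and 2.20 in *Fcgr2b-/-* kidneys, with a difference of 0.25 ± 0.43 (SE, adjusted p = 1). What this probe binds was not tested.

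Of 13 costimulation and checkpoint receptors 8 were tested, and *Tigit* and *Cd40lg* were well above background on none of the 16 arrays. All 8 were above 0 in *Fcgr2b-/-* against WT, with a median of 1.51, and 3 had an unadjusted p under 0.05 by limma, higher (2.62% of all probes), though 0 were called. They were led by *Pdcd1*, the inhibitory receptor PD-1 (2.59 ± 0.86), *Tnfrsf18* (1.83 ± 0.85), and *Lag3* (1.58 ± 0.55; SE, adjusted p = 1 for each). *Pdcd1* was well above background on 7 arrays and read −5.36, −7.24, −6.94, and −6.31 in WT and −1.34, −6.68, −5.04, and −2.44 in *Fcgr2b-/-* kidneys. In *Fcgr2b-/-.Sting gt/gt* against *Fcgr2b-/-* the 8 had a median of −1.23, with 0 called and 1 at an unadjusted limma p under 0.05, lower (1.15% of all probes).

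The ligands of the members were all tested, and 11 of 11 were above 0 in *Fcgr2b-/-* against WT with a median of 1.16, 4 of them at an unadjusted limma p under 0.05 (2.62% of all probes higher), and 0 called. *Cd86*, the ligand of CD28, differed by 2.02 ± 0.83, *Cd48*, the ligand of CD2, by 1.51 ± 0.70, and *H2-Aa*, an MHC class II chain bound by CD4, by 1.38 ± 0.69 (SE, adjusted p = 1 for each). In *Fcgr2b-/-.Sting gt/gt* against *Fcgr2b-/-* 11 of 11 were below 0 with a median of −0.88, 3 of them at an unadjusted limma p under 0.05 (1.15% of all probes lower), and 0 called. Among 22 genes of T-cell subsets 19 were tested, and the median was 0.70 and −0.68 in these comparisons, with 0 called in each. Against WT, *Cd44*, an adhesion receptor that myeloid cells make as well, differed by 2.17 ± 0.73, and *Il7r*, the interleukin-7 receptor chain of naive and memory T cells, by 1.56 ± 1.18 (SE, adjusted p = 1 for both). *Il17a* was well above background on none of the arrays.

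**Figure D4:**
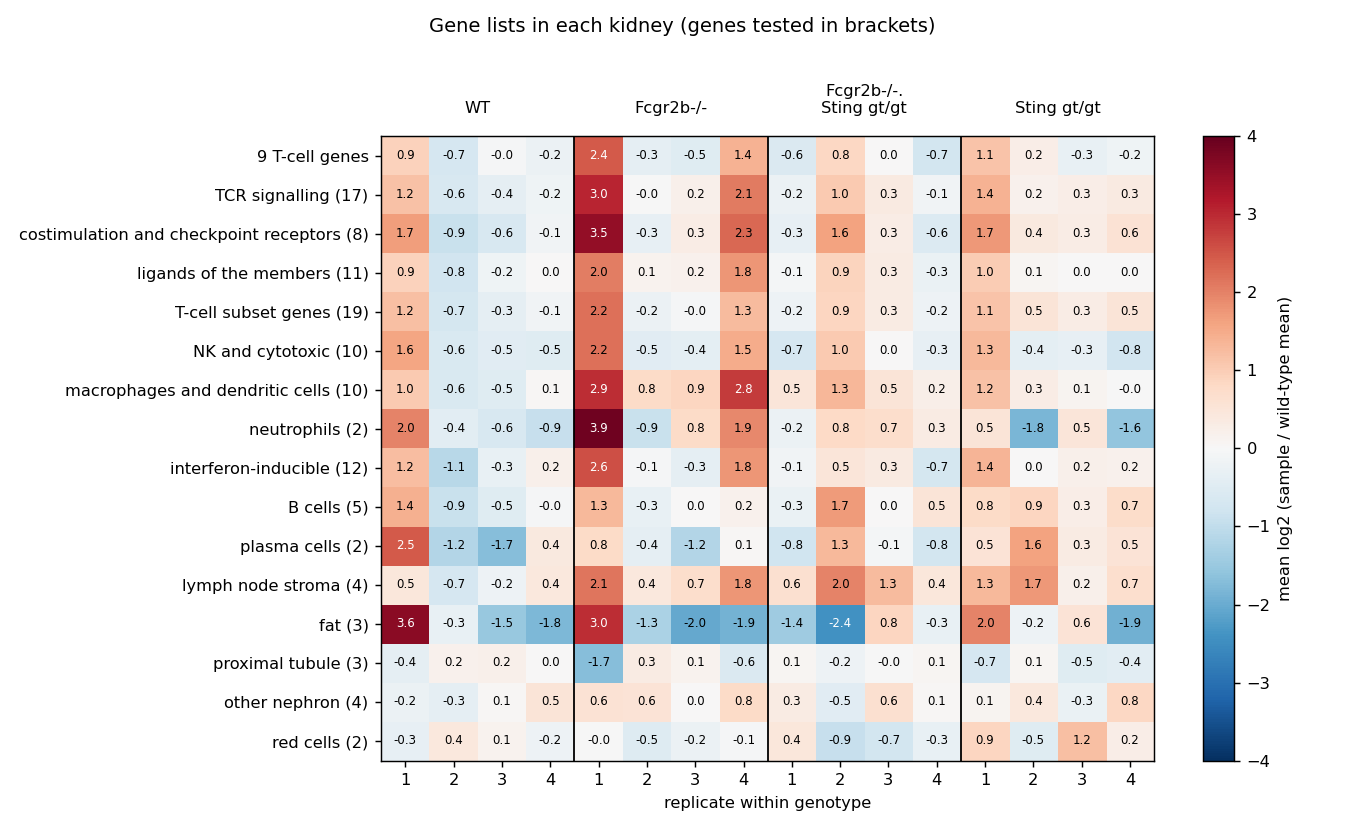
Mean log2 ratio of each list (rows, genes tested in brackets) in each kidney (columns) to the WT mean, colored from −4 to 4 with the value printed. *Fcgr2b-/-* replicate 1 reads 2.4 and replicate 4 reads 1.4 in the 9 T-cell genes, and macrophage and dendritic cell genes read 2.9 and 2.8 there, while B-cell genes read 1.3 and 0.2.

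Markers of other cells moved with the T-cell genes. As the mean log2 ratio to WT, the 9 genes stood at 0.92 in WT replicate 1, 2.44 and 1.38 in *Fcgr2b-/-* replicates 1 and 4, 0.83 in *Fcgr2b-/-.Sting gt/gt* replicate 2, and 1.15 in *Sting gt/gt* replicate 1, and from −0.73 to 0.25 in the other kidneys. For the 10 macrophage and dendritic cell genes the same kidneys stood at 1.04, 2.94, 2.81, 1.33, and 1.16. Those genes were also above the WT mean in the 2 *Fcgr2b-/-* kidneys that were low for T-cell genes, at 0.76 and 0.87, and their median difference against WT was 2.27, with 8 of 10 at an unadjusted limma p under 0.05, higher (2.62% of all probes), and 0 called, led by *Lyz2* (3.22 ± 0.80; SE, adjusted p = 0.499), *Adgre1* (2.57 ± 0.79, adjusted p = 0.874), and *Itgax* (2.53 ± 0.76, adjusted p = 0.836). The 10 tested natural killer and cytotoxic genes stood at 1.57, 2.21, 1.47, 1.04, and 1.29 in the 5 kidneys, and the 12 interferon-inducible genes at 1.23, 2.58, 1.75, 0.49, and 1.37. That last list was added with its results known.

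The 5 tested B-cell genes shared the order in part: *Fcgr2b-/-.Sting gt/gt* replicate 2 was the highest at 1.70, and *Fcgr2b-/-* replicate 4 ranked 9 of 16 at 0.16. WT replicate 1, *Fcgr2b-/-* replicate 1, and *Sting gt/gt* replicate 1 ranked 2, 3, and 5, at 1.42, 1.29, and 0.78. *Cd79b* was highest in the 5 kidneys, at −0.08 or above, with the next at −0.30. The other tested B-cell genes were not highest in these 5. *Cd79a* and *Blk* were well above background on no array, and the median difference of the B-cell genes in *Fcgr2b-/-* against WT was 0.07. The 3 fat genes *Adipoq*, *Plin1*, and *Cidec* stood at 3.62 in WT replicate 1, 2.96 in *Fcgr2b-/-* replicate 1, and 1.97 in *Sting gt/gt* replicate 1, the 3 highest of the 16 and all among the 5, but at −1.90 in *Fcgr2b-/-* replicate 4 and −2.41 in *Fcgr2b-/-.Sting gt/gt* replicate 2. The 3 proximal tubule genes were at −1.70 in *Fcgr2b-/-* replicate 1, the lowest of all, and at −0.58 in replicate 4. Of 5 lymph node stroma genes 4 were tested, and they stood at 0.46, 2.13, 1.78, 1.99, and 1.31 in the 5 kidneys. Their mean did not single out these kidneys: WT replicate 1 ranked 10 of 16. Outside the 5, *Sting gt/gt* replicate 2 was at 1.72 and *Fcgr2b-/-.Sting gt/gt* replicate 3 at 1.26. By gene, *Ccl21a* and *Ccl19* were highest in the 5 kidneys, while *Cxcl13* and *Glycam1* were not. *Ccl21a* read 1.77, 2.36, 2.44, 2.41, and 2.70 there and at most 1.21 elsewhere. *Ccl19* read 0.03, 0.66, 0.26, 0.92, and 0.76 there and at most 0.01 elsewhere. *Glycam1*, named after its values were seen, was lowest in WT replicate 1, at −2.73. *Cxcl13*, the B-zone chemokine among the stroma genes, differed by 3.47 ± 0.83 in *Fcgr2b-/-* against WT (SE, adjusted p = 0.416). In *Fcgr2b-/-.Sting gt/gt* kidneys it differed by 3.18 ± 0.83 from WT and by −0.29 ± 0.83 from *Fcgr2b-/-* (SE), and it was not called. The thymocyte genes *Rag1*, *Rag2*, and *Ptcra* were well above background on no array. The smaller lists had medians, in *Fcgr2b-/-* against WT, of 1.42 for 2 of 3 neutrophil genes, −0.18 for 2 of 3 plasma cell genes, −0.20 for 2 of 3 red cell genes, 0.45 for 4 of 4 other nephron genes, −0.01 for 1 of 3 adrenal genes, and −0.17 for 1 of 4 thymocyte genes, with 0 called in each. Of the 5 kidneys, 4 were on slide 1, which held 8 of the arrays. Y-linked *Eif2s3y* was well above background on 6 arrays, 2 of them from the 5 kidneys. The part of these measures in the T-cell values was not tested.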

How the data were processed

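Total RNA of 16 kidneys, 1 mouse per array, was labeled with Cy3 and hybridized to Agilent whole-genome mouse arrays. The authors scanned them with Agilent Feature Extraction 11.0 and deposited processed signal intensity per spot, background-corrected by the scanner software. The authors also deposited a table of normalized log2 values, used here as an alternative only, in which arrays sharing a replicate number share 1 distribution. Groups came from the sample labels.

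Intensity was taken as log2, the 75th percentile of each array was subtracted, controls and outliers were dropped, and replicate spots were averaged. Of 56605 probes, 32994 (58.3%) were named through RefSeq accessions, and 35628 that were well above background on at least 4 of 16 arrays were tested. limma 3.58.1 (R 4.3.3) was fitted to all 16 arrays with genotype as factor. Calls needed a 2-fold difference or more and a p, adjusted over all tested probes after Benjamini and Hochberg, below 0.05. A gene was represented by its brightest probe. The study's two-sided Mann-Whitney test, other normalizations, filters, slide and replicate blocks, and leaving out each array were alternatives. Permutation tests of correlations were two-sided with 100000 permutations. Python 3.11.15, numpy 2.4.6, pandas 2.3.3, scipy 1.17.1, and matplotlib 3.10.9 were used, and the fit was tested on simulated data. The number of arrays limits the precision.

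Named in the text were the 9 members, *Fcgr2b* and *Sting1*, of each list the 3 tested genes with the largest difference in *Fcgr2b-/-* against WT where the list is described by its genes (1 is not reported here), and the 10 genes closest to the member mean. The members and lists were chosen with earlier results of these data known.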

Additional observations from a re-analysis of the deposited data

Results flagged for a closer look

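In 2 of 36 groups of 4 kidneys (9 genes in 4 genotypes) 1 kidney stood far from the other 3, and chance alone gives about 1 in 20 groups. *Cd3g* was at −0.83 in *Sting gt/gt* replicate 1, with the nearest kidney of its genotype at −2.74 and the lowest at −3.05, so that the gap took up 0.86 of the range. *Cd8b1* was at −1.44 in *Fcgr2b-/-.Sting gt/gt* replicate 2, with the nearest at −2.84 and the lowest at −2.96, a gap of 0.923 of the range. Both kidneys are among the 5 that were highest in *Cd3d*.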

How the results depend on the processing

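In each of the 162 combinations of a setting and a comparison, 0 of the members measured were called. Few or no probes at all were called by limma in these settings. In *Fcgr2b-/-* against WT the most were 39 of 35628, without *Fcgr2b-/-* replicate 2. In *Fcgr2b-/-.Sting gt/gt* against *Fcgr2b-/-*, *Sting gt/gt* against WT, and the interaction it was 0 of all probes in each limma setting. The count of members could not differ from 0 there. The median over the members kept within 1.02, the pooled SD between mice, of its main value. That width is larger than the main medians of 0.79 in *Fcgr2b-/-* against WT and −0.81 in *Fcgr2b-/-.Sting gt/gt* against *Fcgr2b-/-*. A median of 0 would also have kept within it there, so it does not show that a direction held. Over the settings other than leaving out an array, the median ran from 0.51 to 0.86 in *Fcgr2b-/-* against WT and from −0.91 to −0.25 in *Fcgr2b-/-.Sting gt/gt* against *Fcgr2b-/-*. Leaving out each array in turn gave 0.13 to 1.27 and −1.3 to −0.25 for these, −0.43 to 0.31 for *Fcgr2b-/-.Sting gt/gt* against WT, 0.03 to 0.83 for *Sting gt/gt* against WT, and −1.71 to −0.59 for the interaction. The lowest value of *Fcgr2b-/-* against WT and the smallest sizes against *Fcgr2b-/-* and of the interaction came without *Fcgr2b-/-* replicate 1. Without *Sting gt/gt* replicate 1 its difference from WT was 0.03, and *Fcgr2b-/-.Sting gt/gt* against WT changed sign without WT replicate 1.

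In *Fcgr2b-/-* against WT, leaving out each array gave *Cd3g* −0.03 to 1.63 and *Cd4* −0.31 to 0.05, with the changed signs without *Fcgr2b-/-* replicate 1. *Cd8a* was at −0.14 with median scaling, −0.2 with quantile normalization, −0.19 in the authors' table, −0.16 with the slide as a block, −0.18 without the 3 arrays highest in fat genes, and −0.25 with Y-linked signal as a block. It was at −0.52 without WT replicate 2, −0.06 without WT replicate 4, −0.52 without *Fcgr2b-/-* replicate 1, −0.23 without *Fcgr2b-/-* replicate 4, and, the highest with an array left out, 0.49 without *Fcgr2b-/-* replicate 3, and it was at 0.67 as the median of its probes. *Cd4* in *Fcgr2b-/-.Sting gt/gt* against *Fcgr2b-/-* was at −0.02 without *Fcgr2b-/-* replicate 1, and at most at 0.34, without *Fcgr2b-/-* replicate 2. It was also at −0.02 without the 3 fat-rich arrays, which leaves out the same *Fcgr2b-/-* kidney. The r of *Cd3e* changed sign with normexp for *Cd3d* (0.07), *Cd8b1* (0.12), *Cd2* (0.18), *Cd28* (0.33), *Icos* (0.42), and *Cd8a* (0.69, adjusted permutation p = 0.0291). It also did so with median scaling for *Cd3g* (−0.17), with quantile normalization for *Cd3d* (0.03) and *Cd2* (0.05), and in the authors' table for *Cd3d* (0.18), *Cd8b1* (0.15), *Cd2* (0.21), *Cd28* (0.15), and *Icos* (0.08). The cause was not tested. Median scaling moved the median of all probes from −0.042 to −0.198 in *Fcgr2b-/-* against WT, from 0.017 to −0.221 in *Sting gt/gt* against WT, and from 0.009 to 0.293 in the interaction.

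With the replicate number as a block 0 members were called. The medians stayed at 0.79 and −0.81, which is built in, as each genotype had 1 array of each number. Whether the numbers pair the mice or their processing is not settled by the correlations. Same-numbered arrays correlated from −0.603 to 0.689, 11 of 24 pairs were above 0.1, and 5 of 16 arrays correlated best with their own number. Arrays with the same number also share a distribution in the authors' table. The exact Mann-Whitney test of the study's methods, whose smallest possible p with 4 against 4 is 0.0286, gave the members 0.343 to 1 in *Fcgr2b-/-* against WT and 0.2 to 0.886 in *Fcgr2b-/-.Sting gt/gt* against *Fcgr2b-/-*. It was not run for the interaction. Keeping only probes above background on all 16 arrays left 6 members, without *Cd8a*, *Cd28*, and *Icos*, and fitting only the groups compared gave no interaction. The fat, Y-linked, second-probe, and *Cd3d* reference settings were chosen after seeing the data.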
